A study of Arabidopsis thaliana with 6 samples.

Results

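The transcripts described here are those of the chloroplast genome of Arabidopsis thaliana, taken as every row of the gene count table whose locus identifier begins with ATCG and whose mean count over the 6 libraries was at least 10. Of 133 such rows 120 reached that mean, among 33602 genes in the table. The 13 rows below it were all transfer RNA genes. The row just outside had a mean count of 8.5 (trnE, ATCG00250), and the row just inside, rps16 (ATCG00050), had 10.3. The libraries were 3 of a prmt5 mutant and 3 of the wild type, both in the Col-0 ecotype, from whole plants aged 15 days. Plants were grown on agar medium at 22 °C in continuous white light after 4 days of cold and dark. PRMT5 is a protein arginine methyltransferase known for its part in the splicing of nuclear messenger RNA. The allele of the mutant was not given in the sources used here. Each library came from polyadenylated RNA of a pool of tissues, and the labels do not say whether replicates were separate batches of plants, so p-values measure the spread between these samples.

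The chloroplast genome encodes core subunits of the photosystems, the cytochrome b6f complex, the ATP synthase, the NDH complex and Rubisco, together with ribosomal proteins, ribosomal and transfer RNAs and 4 subunits of an RNA polymerase. It is transcribed by that plastid-encoded polymerase, which needs nuclear-encoded sigma factors to find promoters, and by a nuclear-encoded phage-type polymerase. Most genes lie in operons whose long transcripts are cut and spliced by nuclear-encoded proteins. In the plastid a poly(A) tail marks an RNA for degradation, whereas in the nucleus it marks a mature messenger. Selection on poly(A) therefore keeps plastid RNA only in small part, and the values below describe that captured part and not total plastid RNA.

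Total gene counts per library were 34112844, 40150358 and 33099525 in prmt5 mutant replicates 1, 2 and 3 and 38511294, 59480457 and 29145068 in wild type replicates 1, 2 and 3. The PRMT5 transcript was at 55.966, 58.707 and 53.712 CPM (read counts scaled to library size, with TMM factors) in prmt5 mutant libraries and at 35.526, 29.406 and 30.863 CPM in wild type libraries. A PRMT5 intron held 196, 301 and 206 reads in prmt5 mutant libraries, against 15, 5 and 8 in wild type libraries, which set all 6 libraries apart by label. The 5 leaf marker genes summed to 22710 to 25520 CPM in prmt5 mutant libraries and 38600 to 43710 CPM in wild type libraries, and all 5 were lower in the mutant by the test below. The 6 root markers summed to 933.1 to 1008 CPM in prmt5 mutant libraries and 974.4 to 1536 CPM in wild type libraries, with 1 of 6 lower. The 3 flower markers summed to at most 2.043 CPM in prmt5 mutant libraries and 5.233 CPM in wild type libraries, AP1 was at 0 in 2 mutant libraries, and 2 of the 2 flower markers tested were lower in the mutant. The median log2 ratio of 3′ over 5′ coverage over 10365 nuclear genes was 0.7437, 0.8127 and 1.338 in prmt5 mutant libraries. In wild type libraries it was 1.7411, 1.2803 and 1.3559. The part of tissue makeup in the results below was not tested, and the part of coverage was examined only through a fit with that ratio as a covariate. The ratio was lower in prmt5 mutant replicates 1 and 2 than in every wild type library. It thus partly follows genotype, and that fit cannot fully tell coverage and genotype apart. A call lost in it cannot be assigned to coverage.

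Genes of the inverted repeat stand in the table once for each repeat copy. Over 108 values of 18 such pairs, 57 were equal in both copies, and at 100 or more counts the copies differed by at most 4.41%. Reads of the repeat were thus entered under both copies, and each pair is counted once below unless all rows are named. Without the second copies the 120 rows were 104 distinct genes.

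The introns whose reads are described further on carry the following ends, printed on the sense strand from 5′ to 3′ in TAIR10.1, the assembly that matched the deposited plastid coordinates. Most plastid introns are group II introns, whose 5′ end usually reads GTGNG; where an intron opens with these letters they are in capitals. Of 19 distinct intron bins 13 opened so. These were chosen because clpP is the gene that rose and because ndhB, rpl16, trnV and the second bin of clpP are named in the intron results.
clpP intron bin 1, start, Pt:70633-70652, minus strand: tggcgccaatgagttttttt
clpP intron bin 1, end, Pt:70138-70157, minus strand: accttttctattatatcatc
clpP intron bin 2, start, Pt:71792-71811, minus strand: GTGCGacttgtcagatatat
clpP intron bin 2, end, Pt:70945-70964, minus strand: gaataaaaaattatcctaat
ndhB intron, start, Pt:96368-96387, minus strand: GTGCGgttcgtttgagaaat
ndhB intron, end, Pt:95703-95722, minus strand: atcctcttttcgactctgac
rpl16 intron, start, Pt:82624-82643, minus strand: GTGTGactcgttggtttagg
rpl16 intron, end, Pt:81588-81607, minus strand: ttagaaccatcaactataac
trnV intron, start, Pt:51813-51832, minus strand: GTGCGccaaagtttttcaga
trnV intron, end, Pt:51234-51253, minus strand: ataagttcgaactcttttac
Bins of clpP are numbered along the genome, so bin 2 is the first intron to be transcribed.

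All plastid rows, with both repeat copies, took 0.255%, 0.235% and 0.427% of all gene counts in prmt5 mutant libraries. They took 0.489%, 0.257% and 0.396% in wild type libraries. The ratio of means was 0.803 and the groups overlapped (two-sided exact permutation p = 0.5, where 0.1 is the smallest that 3 against 3 libraries allow). With 1 repeat copy the shares were 0.144%, 0.133% and 0.237% in prmt5 mutant libraries and 0.263%, 0.147% and 0.222% in wild type libraries. The ratio of means was then 0.813, again with overlap (exact permutation p = 0.5). Prmt5 mutant replicate 3 and wild type replicates 1 and 3 were the high libraries. In such whole-plant RNA, fewer plastids or green cells and less plastid RNA in each cannot be told apart. Mitochondrial genes, the other organelle set, took 0.0124% to 0.0187% in prmt5 mutant libraries and 0.0153% to 0.0232% in wild type libraries. The log2 ratio of plastid counts, both repeat copies included, to mitochondrial counts averaged 4.35 ± 0.17 in the prmt5 mutant and 4.33 ± 0.23 in the wild type (SD, n = 3 each, exact permutation p = 0.9). The sign of the difference turned when prmt5 mutant replicate 3 (-0.056) or wild type replicate 2 (-0.10) was left out.

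Most captured plastid reads came from ribosomal RNA. With 1 repeat copy, rRNA genes held 75.0%, 74.0% and 78.7% of plastid counts in prmt5 mutant libraries and 84.8%, 72.0% and 75.5% in wild type libraries (exact permutation p = 0.8). Protein-coding plastid genes took 0.0346%, 0.0331% and 0.0487% of all gene counts in prmt5 mutant libraries and 0.0377%, 0.0397% and 0.0515% in wild type libraries, again with overlap (exact permutation p = 0.5). The wild type library with the highest rRNA share was replicate 1, which did not stand out in protein-coding reads.

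**Figure D1:**
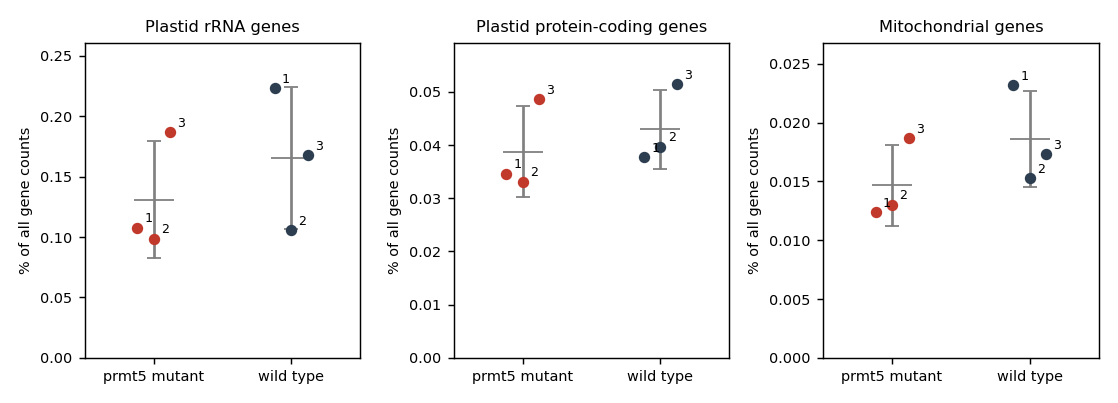
Share of all gene counts, in percent, taken by plastid rRNA genes, plastid protein-coding genes (1 repeat copy each) and mitochondrial genes, with 1 point per library numbered by replicate and bars for mean and SD. The prmt5 mutant and wild type libraries overlap in each panel, and prmt5 mutant replicate 3 is the highest of its group in all panels.

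Each gene was tested for a difference between prmt5 mutant and wild type with edgeR's quasi-likelihood test on the counts, fitted over 21949 genes, with a call where the p-value after Benjamini-Hochberg adjustment was under 0.05. Of 103 distinct plastid genes tested, 1 rose and 4 fell in the prmt5 mutant. Calls were made for 34.5% of all genes tested, with 18.6% higher and 15.9% lower, and for 4.85% of the plastid genes. These shares were not matched for count level or for spread between libraries. SEs of the plastid log2 changes ran from 0.14 (rpl32) to 0.66 (trnR, ATCG00110), so few calls need not mean little change. The median log2 change was -0.18 over the plastid genes and -0.015 over all genes tested, with 34 plastid genes above 0 and 69 below. At an unadjusted p under 0.05 the counts were 10 of 103 plastid genes and 44.8% of all genes. DESeq2 called 4 distinct plastid genes, clpP, atpE, ycf2 and trnA. In the classes given below with 0 called by edgeR, DESeq2 also called 0, and at an unadjusted edgeR p under 0.05 there was 1 gene in photosystem II, 1 in the small ribosomal subunit and 0 in the others. Over all rows 7 of 119 tested were called, since ycf2 and trnA each have a second copy. The range of the plastid log2 changes ran from -1.50 (the transfer RNA row ATCG00390) to 1.05 (rpl36), neither of them called.

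The same fit gave other counts for nuclear photosynthesis genes and for mitochondrial genes. Of 56 nuclear genes whose products name a photosystem, the light-harvesting complex or the Rubisco small subunit, 41 fell and 0 rose, with a median log2 change of -0.69. They took 6.64% ± 0.38 of gene counts in the prmt5 mutant and 10.3% ± 0.87 in the wild type (SD, n = 3 each), with no overlap (exact permutation p = 0.1, the smallest possible). The match by product name did not take in the leaf markers CAB1, CAB3, LHCA3 and LHB1B1, so the share is not that of all such genes. It did take in loci named for a PsbP-like family, such as AT1G69680, a putative Ran guanine nucleotide release factor. Of 53 mitochondrial genes tested 7 fell and 0 rose, with a median log2 change of -0.37.

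**Figure D2:**
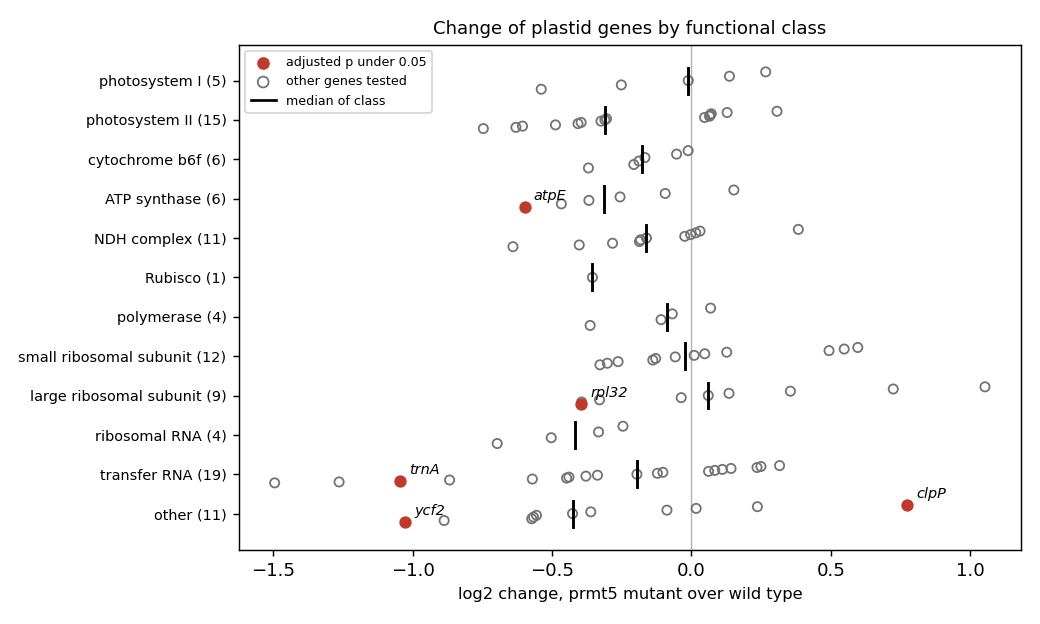
Log2 change, prmt5 mutant over wild type, of the 103 distinct plastid genes tested, 1 point per gene, in rows by functional class with the number of genes tested in brackets. Filled points passed an adjusted p of 0.05 and bars mark class medians; the 5 filled points are clpP to the right of 0 and atpE, rpl32, ycf2 and trnA to the left.

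The gene that rose was clpP (ATCG00670, Pt:69910-71882, minus strand), which encodes the proteolytic subunit of the stromal Clp protease. It had 19.8, 13.7 and 15.9 CPM in prmt5 mutant libraries, against 10.8, 8.42 and 9.67 CPM in wild type libraries. Every mutant library lay above every wild type library. The log2 change was 0.77 ± 0.15 (SE; edgeR adjusted p = 0.00273), and the gene was called in 13 of 13 alternative fits, with log2 changes between 0.63 and 0.89.

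The 3 exons of clpP did not change by one ratio. The last exon to be transcribed (Pt:69910-70137) had 7.45, 5.73 and 6.66 CPM in prmt5 mutant libraries and 2.05, 3.31 and 3.21 CPM in wild type libraries, a ratio of means of 2.31. The middle exon (Pt:70653-70944) had 11.7, 8.62 and 10.3 CPM in prmt5 mutant libraries and 6.69, 5.90 and 5.92 CPM in wild type libraries, a ratio of 1.66. The first exon (Pt:71812-71882) had 6.66, 4.48 and 4.90 CPM in prmt5 mutant libraries and 5.62, 2.82 and 3.78 CPM in wild type libraries, a ratio of 1.31 with overlapping groups. The exons were not tested separately.

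Reads across the clpP splice junctions gave a similar order. These reads are also part of the exon counts above, so they are not an independent measure. Junction reads over intron bin 1, which joins the last exons, stood at 3.30, 2.55 and 2.92 CPM in prmt5 mutant libraries and 0.72, 1.97 and 0.89 CPM in wild type libraries. Those over intron bin 2 stood at 2.78, 2.58 and 3.07 CPM in prmt5 mutant libraries and 2.82, 1.64 and 2.35 CPM in wild type libraries. The groups were separate at the first of these junctions and overlapped at the other.

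clpP heads an operon that goes on with the 5′ part of rps12, a trans-spliced gene of the small ribosomal subunit, and with rpl20, of the large subunit. The operon summed to 22.1, 15.5 and 17.4 CPM in prmt5 mutant libraries and 11.3, 9.84 and 11.3 CPM in wild type libraries, a ratio of 1.69 with no overlap, most of it from clpP. rpl20 had 0.994, 0.698 and 1.11 CPM in prmt5 mutant libraries and 0.205, 0.704 and 0.785 CPM in wild type libraries (log2 change 0.72, edgeR adjusted p = 0.255). The 5′ part of rps12 had 1.32, 1.08 and 0.379 CPM in prmt5 mutant libraries and 0.308, 0.722 and 0.821 CPM in wild type libraries (log2 change 0.60, edgeR adjusted p = 0.38). Neither was called, their groups overlapped, and with the coverage ratio as a covariate the change of the 5′ part of rps12 was -0.93.

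Among the genes that fell, atpE (ATCG00470, Pt:52265-52663) encodes the epsilon subunit of the ATP synthase. It had 4.5, 5.61 and 7.27 CPM in prmt5 mutant libraries, against 8.39, 8.14 and 9.85 CPM in wild type libraries. The groups did not overlap, and the log2 change was -0.60 ± 0.18 (SE; edgeR adjusted p = 0.0249). It shares its transcript, and a few bases of sequence, with atpB for the beta subunit, which had 11, 13.1 and 18.1 CPM in prmt5 mutant libraries and 12.9, 21.8 and 23.5 CPM in wild type libraries (log2 change -0.47, edgeR adjusted p = 0.217; -0.69 and 0.023 with wild type replicate 1 left out). Without prmt5 mutant replicate 1, prmt5 mutant replicate 2 or wild type replicate 3, the fall of atpE was no longer called (edgeR adjusted p = 0.08045, 0.08386 and 0.09888), nor with the coverage covariate (edgeR adjusted p = 0.349).

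rpl32 (ATCG01020, Pt:113449-113607), a large-subunit ribosomal protein gene, had the highest level per length of the protein-coding plastid genes, at 77.8 CPM per kb in the prmt5 mutant and 102 CPM per kb in the wild type. It had 11.1, 10.8 and 15.2 CPM in prmt5 mutant libraries, against 15.9, 16.1 and 16.8 CPM in wild type libraries. The groups were separate, though prmt5 mutant replicate 3 came close to the wild type. The log2 change was -0.40 ± 0.14 (SE; edgeR adjusted p = 0.0471). The call was lost when any library other than prmt5 mutant replicate 3 was left out (edgeR adjusted p between 0.05248 and 0.1766), with DESeq2 (adjusted p = 0.05218) and with the coverage covariate (edgeR adjusted p = 0.537).

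ycf2 (ATCG00860 at Pt:86474-93358, with its copy ATCG01280), a large gene of the inverted repeat whose product is part of a protein import motor, had 2.86, 4.82 and 3.68 CPM in prmt5 mutant libraries, against 8.21, 4.81 and 10.4 CPM in wild type libraries. Wild type replicate 2 lay within the mutant range. The log2 change was -1.03 ± 0.29 (SE; edgeR adjusted p = 0.022), and -0.99 for the copy. The call was lost without prmt5 mutant replicate 1 or 3 or wild type replicate 1 or 3 (edgeR adjusted p = 0.06486, 0.07307, 0.07583 and 0.06923), and with the coverage covariate (edgeR adjusted p = 0.236).

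trnA (ATCG00940 at Pt:103665-104538, with its copy ATCG01190) is the alanine transfer RNA gene that lies between rrn16S and rrn23S. Its exons had 2.78, 2.17 and 2.60 CPM in prmt5 mutant libraries, against 3.31, 3.79 and 8.67 CPM in wild type libraries, with wild type replicate 3 far above the others. The log2 change was -1.05 ± 0.35 (SE; edgeR adjusted p = 0.0429). With wild type replicate 3 left out, it was -0.50 (edgeR adjusted p = 0.158), and the call was also lost without each mutant replicate in turn (edgeR adjusted p = 0.0783, 0.137 and 0.106) with the coverage covariate (edgeR adjusted p = 0.131) and with no filter on low counts (edgeR adjusted p = 0.0527).

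**Figure D3:**
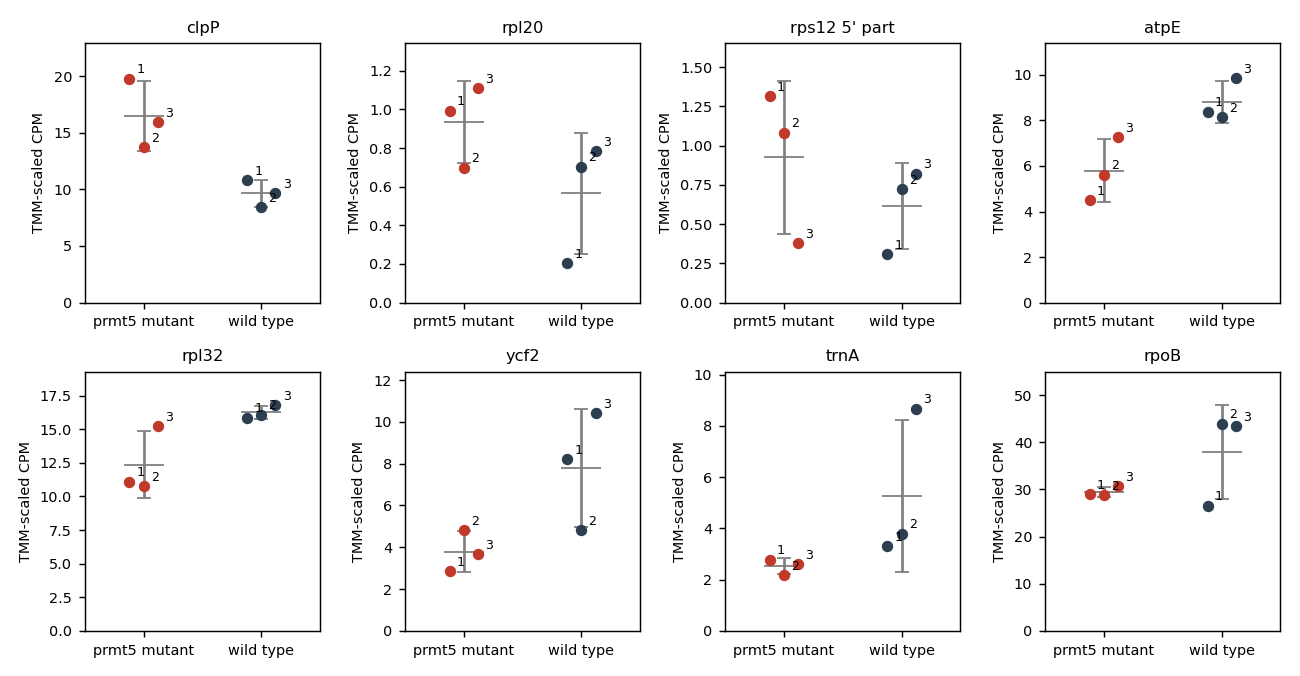
TMM-scaled CPM of 8 plastid genes in each library, numbered by replicate, with mean and SD, prmt5 mutant left and wild type right. In clpP all 3 mutant points lie above the wild type points; in atpE, rpl32 and trnA they lie below; in rpl20, the 5′ part of rps12, ycf2 and rpoB the groups overlap.

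Groups that did not overlap were found in 3 plastid genes higher in the mutant and 6 lower, of 103, against 48.4% of all genes (24.6% higher, 23.7% lower). Of the higher ones beside clpP, rpl36, a large-subunit ribosomal protein gene of the rpl23 to rpoA operon, named after its values were seen, had 1.49, 1.04 and 1.02 CPM in prmt5 mutant libraries and 0.308, 0.933 and 0.392 CPM in wild type libraries (log2 change 1.05, edgeR adjusted p = 0.0836). The lower ones were atpE, rpl32 and trnA together with ndhD, ycf3 and trnI, whose adjusted p-values lay above the threshold.

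Among photosystem genes 0 of 15 for photosystem II and 0 of 5 for photosystem I were called. The class medians of log2 change were -0.31 and -0.01. psbA encodes the D1 reaction-centre protein and had the highest mean count of photosystem II genes, at 26.4, 23.1 and 53.1 CPM in prmt5 mutant libraries and 31.7, 33.6 and 63.4 CPM in wild type libraries. Replicate 3 was the highest library in each group, and the groups overlapped (log2 change -0.32 ± 0.47, SE; edgeR adjusted p = 0.635). psbB, for the CP47 antenna protein, had 9.85, 9.17 and 14.4 CPM in prmt5 mutant libraries and 13.1, 14.5 and 19.4 CPM in wild type libraries (log2 change -0.49, edgeR adjusted p = 0.0787). All 5 genes of its operon, psbB to petD, had log2 changes below 0, between -0.63 and -0.19, with none called. psbD, for the D2 protein, stood at -0.61 on the log2 scale (edgeR adjusted p = 0.123). Without prmt5 mutant replicate 3, psbB and psbD passed the threshold at -0.71 and -0.90 (edgeR adjusted p = 0.0174 and 0.0399). psaB, a reaction-centre protein of photosystem I, had 12.9, 9.97 and 21.9 CPM in prmt5 mutant libraries and 13.1, 12.3 and 19.9 CPM in wild type libraries, and its log2 change of -0.01 had an SE of 0.33.

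The promoter of psbA is a textbook case for the plastid-encoded polymerase, with bacterial-type boxes. A search of the 250 bases before each of the 104 distinct genes for TTGACA, then 15 to 19 bases, then TANNNT, on the gene's strand, found it before 6 genes (5.77%), against 0.988% of all 250-base windows of both strands of the plastid genome. Those before psbA, where the match began 115 bases ahead of the deposited gene start, and before the valine transfer RNA gene ATCG00450, where it began 50 bases ahead, are given with the boxes in capitals. They are shown because these 2 genes hold the highest photosystem reads and the highest intron reads. The other matches lay before trnK, trnY and both ycf1 rows. The ycf1 rows differ in length and were kept apart, but both begin in the inverted repeat, so theirs is the same sequence found once in each repeat copy.
psbA upstream boxes, Pt:1530-1559, minus strand: TTGACAtggctatataagtcatgtTATACT
trnV upstream boxes, Pt:51893-51921, minus strand: TTGACAagaaattatctacatgaTAAGAT

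The large Rubisco subunit gene rbcL, the only plastid gene of that enzyme, had 15.6, 14.1 and 33.2 CPM in prmt5 mutant libraries and 20.7, 21.1 and 38.9 CPM in wild type libraries. As with psbA, replicate 3 was high in each group, and the log2 change of -0.36 ± 0.46 (SE) was not called (edgeR adjusted p = 0.597). Cytochrome b6f genes had 0 of 6 called, all with log2 changes below 0 (median -0.18), with petA, for cytochrome f, highest in count at -0.05. ATP synthase genes had 1 of 6 called, which was atpE, and a median of -0.31. In the operon rps2 to atpA the changes lay between -0.37 (atpH, edgeR adjusted p = 0.236) and 0.15.

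NDH genes, for the complex that passes electrons from ferredoxin to plastoquinone, had 0 of 11 called, a median log2 change of -0.16 and a range of -0.64 (ndhD) to 0.38 (ndhE). ndhD had 1.43, 1.83 and 1.81 CPM in prmt5 mutant libraries and 2.1, 1.94 and 4.00 CPM in wild type libraries, so that wild type replicate 3 carried most of the difference (edgeR adjusted p = 0.125). ndhB, of highest count among them, had a log2 change of -0.02. ndhC, first of the ndhC to ndhJ operon, had -0.40 (edgeR adjusted p = 0.355).

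The 4 polymerase subunit genes had 0 called and a median of -0.09. rpoB, for the beta subunit and highest in count, had 29.0, 28.8 and 30.7 CPM in prmt5 mutant libraries and 26.5, 43.9 and 43.4 CPM in wild type libraries. The mutant libraries agreed closely while wild type replicate 1 lay below them (log2 change -0.36, edgeR adjusted p = 0.13). With wild type replicate 1 left out, the log2 change was -0.57 (edgeR adjusted p = 0.000458). With any other library left out it lay between -0.39 and -0.24 and was not called (edgeR adjusted p between 0.203 and 0.356).

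Ribosomal protein genes split around 0. Of the small subunit 0 of 12 tested were called, with a median of -0.02, and of the large subunit 1 of 9, which was rpl32, with a median of 0.06. rps3, highest in count of the small subunit, had a log2 change of 0.05. rpl2 (ATCG00830, with its copy ATCG01310), highest of the large subunit, had 17.4, 12.9 and 15.6 CPM in prmt5 mutant libraries and 15.5, 22.4 and 22.5 CPM in wild type libraries (log2 change -0.39, edgeR adjusted p = 0.081). It fell past the threshold without wild type replicate 1 (edgeR adjusted p = 0.00586). In the rpl23 to rpoA operon, which runs through 11 genes, 6 log2 changes were above 0 and 5 below. rpl36 stood at 1.05, while rpl23 and rpl2 at the start of the operon stood at -0.33 and -0.39.

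Ribosomal RNA genes had 0 of 4 called, all with log2 changes below 0 (median -0.42). rrn23S (ATCG00950, with its copy ATCG01180) had 643, 564 and 998 CPM in prmt5 mutant libraries and 1364, 649 and 1111 CPM in wild type libraries. rrn16S (ATCG00920, with its copy ATCG01210) had 427, 385 and 800 CPM in prmt5 mutant libraries and 830, 454 and 626 CPM in wild type libraries. In both genes prmt5 mutant replicate 3 lay above wild type replicate 2, and the log2 changes were -0.50 ± 0.31 and -0.25 ± 0.34 (SE; edgeR adjusted p = 0.26 and 0.612). With wild type replicate 2 left out, the change of rrn23S was -0.75 (edgeR adjusted p = 0.0389). These were also the genes with the highest levels per length, at 360 CPM per kb for rrn16S and 262 CPM per kb for rrn23S in the prmt5 mutant, and 427 and 371 CPM per kb in the wild type. Transfer RNA genes had 1 of 19 called, which was trnA, and a median of -0.20.

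The remaining plastid genes not in these classes were 11, of which 1 rose (clpP) and 1 fell (ycf2). accD, for a subunit of acetyl-CoA carboxylase, had 0.351, 0.674 and 1.17 CPM in prmt5 mutant libraries and 1.92, 0.722 and 1.46 CPM in wild type libraries (log2 change -0.89, edgeR adjusted p = 0.171). matK, a maturase gene inside the trnK intron, had a log2 change of 0.02. ycf1, for a protein of the inner envelope, had 8.68, 7.42 and 11.8 CPM in prmt5 mutant libraries and 22.5, 9.61 and 9.13 CPM in wild type libraries, where wild type replicate 1 alone was high (log2 change -0.57, edgeR adjusted p = 0.336).

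Over all rows, with both repeat copies, 0 of the 12 class shares of plastid counts had groups that did not overlap. The smallest exact permutation p was 0.3 (adjusted p of 1 over the 12 classes). Among protein-coding plastid reads, photosystem II genes took 18.2%, 18.3% and 23.2% in prmt5 mutant libraries and 20.1%, 19.95% and 25.0% in wild type libraries. Replicate 3 had the highest such share in each group. Small-subunit ribosomal protein genes took 9.51%, 8.89% and 7.77% in prmt5 mutant libraries and 7.79%, 7.61% and 6.75% in wild type libraries, which overlapped by a narrow margin (exact permutation p = 0.2).

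Introns were tested relative to their genes, by the same edgeR model with the gene's count as offset, over 34408 introns of all genomes. The log2 change is then that of the intron reads beyond the change of the gene. Calls were made for 27.9% of all introns tested, with 26.7% higher in the mutant and 1.21% lower, and the median log2 change was 0.46 with 76.3% above 0. Of 18 distinct plastid introns tested 0 rose and 1 fell, the median was -0.12, and 6 of 18 (33.3%) were above 0. At an unadjusted p under 0.05 there were 2 of 18, against 36.9% of all introns. Groups that did not overlap were found in 3 plastid introns, all lower in the mutant, against 40.5% of all introns (37.1% higher, 3.41% lower).

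The plastid intron that fell was that of ndhB, with its copy in the other repeat. It held 15, 29 and 24 reads in prmt5 mutant libraries, against 49, 50 and 43 reads in wild type libraries. Per 100 gene counts these were 14.9, 25.7 and 24.2 in prmt5 mutant libraries and 86.0, 29.9 and 35.0 in wild type libraries, so that wild type replicate 1, where the gene count was low, set much of the ratio. The log2 change was -1.10 ± 0.37 (SE; edgeR adjusted p = 0.0232). With wild type replicate 1 left out, it was -0.58 (edgeR adjusted p = 0.242), without prmt5 mutant replicate 1 it was -0.89 (edgeR adjusted p = 0.117), and with the coverage covariate it was -0.19 (edgeR adjusted p = 0.875).

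The rpl16 intron held 414, 326 and 386 reads in prmt5 mutant libraries and 678, 652 and 302 reads in wild type libraries. Per 100 gene counts the mutant libraries lay between 106 and 115 and the wild type libraries between 103 and 219 (log2 change -0.46, edgeR adjusted p = 0.0681). With wild type replicate 3 left out, this fall was called (log2 change -0.67, edgeR adjusted p = 0.00735). Intron bin 2 of clpP held 205, 201 and 159 reads in prmt5 mutant libraries and 200, 173 and 104 reads in wild type libraries. Relative to the gene these were 30.3, 35.3 and 29.2 per 100 gene counts in prmt5 mutant libraries and 47.4, 36.2 and 38.4 in wild type libraries. The groups were separate, and the log2 change of -0.36 was not called (edgeR adjusted p = 0.139). With spliced reads in place of the gene count as the base it was 0.078.

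The intron with the most reads was that of the valine transfer RNA gene trnV (ATCG00450), with 1014, 850 and 1038 reads in prmt5 mutant libraries and 1367, 1444 and 854 reads in wild type libraries. Of 19 distinct introns it was the only one with more reads per base than its exons, by a factor of 6.44. The exons of transfer RNA genes are short and gave a mean count of 21 here, so the ratio to the gene rests on few reads. The log2 change was -0.51 (edgeR adjusted p = 0.167), and -0.66 with wild type replicate 3 left out (edgeR adjusted p = 0.0458). Reads of the trnK intron include those of matK, which lies in it.

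**Figure D4:**
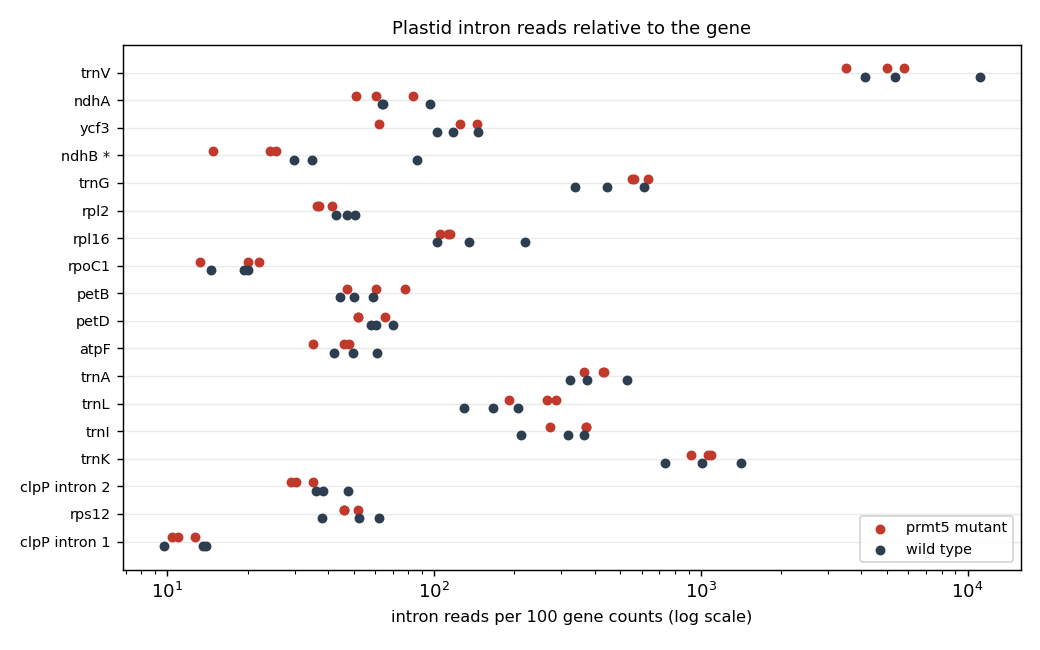
Intron reads per 100 gene counts on a log axis for the 18 distinct plastid introns tested, ordered by read density relative to the exons, with 3 points per genotype. The asterisk marks ndhB, the only called intron; its 3 mutant points lie at 14.9 to 25.7, and all points of trnV lie to the right of those of the other introns.

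The nuclear genome encodes most of the proteins that transcribe and process plastid RNA. Of 47 such genes tested 31 rose and 1 fell in the prmt5 mutant, 68.1% against 34.5% of all genes, and the median log2 change was 0.40. With the coverage covariate the count was 9, all higher, and without wild type replicate 3 it was 21, all higher. The list was drawn up with earlier results of these libraries known.

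Among 6 sigma factors and the plastid phage-type polymerase, 4 rose and 1 fell. SIGC, known as SIG3, had 271, 247 and 262 CPM in prmt5 mutant libraries, against 65.5, 65.4 and 61.9 CPM in wild type libraries (log2 change 2.01, edgeR adjusted p = 2.4e-07). SCA3, the phage-type polymerase RPOTp, had 249, 230 and 189 CPM in prmt5 mutant libraries, against 67.8, 56.1 and 53.1 CPM in wild type libraries (log2 change 1.92, edgeR adjusted p = 2.03e-06). These groups were far apart. SIG4 rose by 0.62 on the log2 scale (edgeR adjusted p = 0.00157). SIGA, known as SIG1, had 92.4, 41.0 and 69.5 CPM in prmt5 mutant libraries and 119, 200 and 206 CPM in wild type libraries. Its log2 change of -1.37 (edgeR adjusted p = 0.0337) was no longer called without prmt5 mutant replicate 3, wild type replicate 2 or wild type replicate 3 (edgeR adjusted p = 0.0758, 0.127 and 0.104), with the coverage covariate (edgeR adjusted p = 0.105) or with no filter on low counts (edgeR adjusted p = 0.0755).

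Of 13 proteins associated with the plastid-encoded polymerase 10 rose and 0 fell, among them MURE (log2 change 0.85), PDE312, also called PTAC10 (0.92), and FLN1 (0.89). Of 16 genes for RNA stability and processing 8 rose and 0 fell. Log2 changes were above 0 in 11 of the 16 and below 0 in 5. Groups did not overlap in 10 higher and 3 lower, against 24.6% and 23.7% of all genes. MRL1, a pentatricopeptide repeat protein that protects the 5′ end of rbcL RNA, had 301, 264 and 225 CPM in prmt5 mutant libraries and 119, 146 and 137 CPM in wild type libraries (log2 change 0.98, edgeR adjusted p = 0.000224). PGR3 and SVR7, of the same protein family, had log2 changes of 0.68 and 0.52. With the coverage covariate PDE312, FLN1, PGR3 and SVR7 were not called (edgeR adjusted p = 0.0749, 0.0621, 0.0858 and 0.202). Of 11 genes for plastid intron splicing 9 rose and 0 fell. CAF1, a group II intron splicing factor, had 94.4, 86.3 and 68.7 CPM in prmt5 mutant libraries and 42.5, 42.9 and 38.6 CPM in wild type libraries (log2 change 1.01, edgeR adjusted p = 9.73e-05). WTF1 and CAF2, of the same process, had log2 changes of 1.10 and 0.61.

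**Figure D5:**
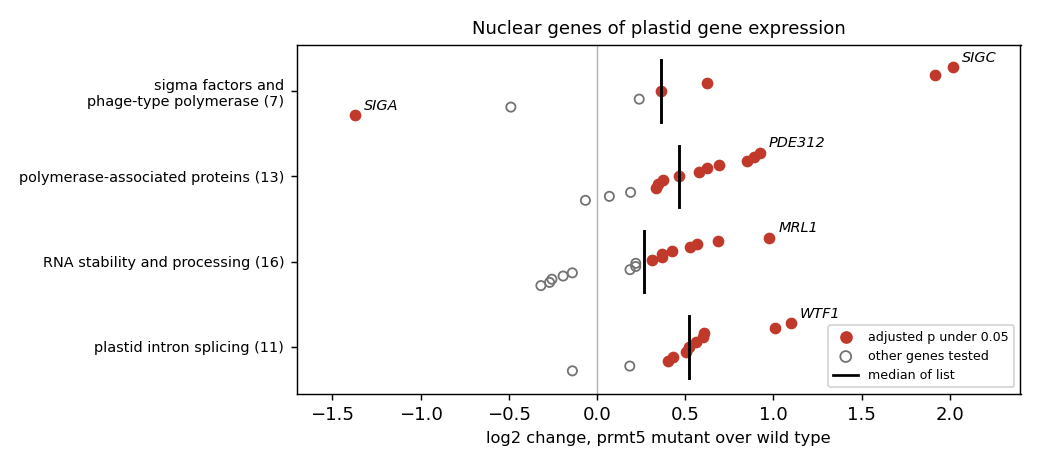
Log2 change, prmt5 mutant over wild type, of 47 nuclear genes of plastid gene expression, 1 point per gene in 4 groups with the number of genes in brackets; filled points passed an adjusted p of 0.05 and bars mark group medians. Most filled points lie to the right of 0, with SIGC at 2.01, and SIGA at -1.37 is the only filled point to the left.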

How the data were processed

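Tables of gene, exon bin, intron bin and splice junction counts were deposited as whole-number counts per library, per the file headers, with no normalization. STAR and TAIR10 are named in the submitters' processing notes; nothing used here names the counting program, its annotation or its use of strand, so plastid genes the table marks as overlapping (among them atpB and atpE, psbC and psbD, rps3 and rpl22, ndhF and the shorter ycf1 row) cannot be told apart in the shared stretch, nor can psbN from any antisense transcript. PCR reads carry no molecular identifiers, libraries had 12 PCR cycles, and counts carry counting error. Of 133 plastid rows 125 matched a gene of the plastid sequence in TAIR10.1 exactly, 5 by overlap and 3 not at all. Gene counts leave intron reads out. Genes were tested with edgeR 4.0.16 (R 4.3.3; TMM, default filter, robust quasi-likelihood fits) and introns with the same model and the gene count plus 1 as offset (at least 10 reads in 3 libraries, mean gene count at least 20). DESeq2 1.42.0 was an alternative. Tests on simulated counts recovered 79.1% of genes (21891 in the fit) and 37.3% of introns (34408 in the fit) changed by 1 on the log2 scale. At 2 they recovered 100% and 92.5%. The simulated counts had the same fixed dispersion for every gene and intron, so these rates do not apply to plastid genes with a wider spread between libraries. Permutation tests over libraries counted every split into groups of equal size, and were exact and two-sided. Alternatives were other scalings and filters, nuclear library sizes, the coverage ratio as covariate, the replicate block and each library left out. Where leaving out a library brought an uncalled gene or intron past the threshold, that fit is quoted for its outcome, and the other fits are not all given. Named members were psbA and rbcL, the highest count in each class, up to 3 called with the largest change in each direction and no overlap, the smallest p in each operon, 4 introns (3 by smallest p, 1 by count), and up to 3 called nuclear genes per list and direction. Other members named were chosen after their values were seen. Members and lists were chosen with earlier results of these data known, and 7 of 54 nuclear loci were left out because the reference does not carry the listed name. Results of some plastid genes are not reported here.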

Additional observations from a re-analysis of the deposited data

How the results depend on the processing

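The rise of clpP kept its direction and its call in each alternative run; its range is given above. The count of called plastid rows, 7, was 1 with the coverage covariate and 1 to 11 with single libraries left out (11 without wild type replicate 1, of which 4 were among the 7; 1 without wild type replicate 3; 2 and 3 without prmt5 mutant replicates 1 and 2). The count of called nuclear genes, 32, was 9 with the coverage covariate and 21 to 32 with libraries left out. The count of called plastid introns, 2 with repeat copies, was 0 with the coverage covariate and 0 to 4 with libraries left out. With spliced reads as base 9 introns could be tested, and 0 were called. The ndhB intron and its copy, the 2 called in the main fit, were not among them, with 0 to 7 spliced reads per library. That fit therefore cannot show whether their fall held. With the TMM-scaled total of all tested intron reads as base the count of called plastid introns was 17, all lower. That total itself holds the introns of which 26.7% were called higher in the mutant relative to their genes. Apart from the fit with spliced reads, the cause of these shifts was not tested. The difference of log2 plastid over mitochondrial counts lay between -0.104 and 0.119 with libraries left out. The number of class shares without overlap, 0, was 1 without repeat genes and 0 to 2 with libraries left out, where fewer libraries make overlap less likely. The plastid share of gene counts kept a ratio below 1 in every alternative run.

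Direction turned in genes whose change was not called. With the coverage covariate the log2 changes were 0.049 for psbA, 0.070 for psbI, 0.38 for psaB, 0.32 for ndhC, 0.068 for rbcL, 0.19 for accD, 0.11 for petA, -0.17 for rps3, 0.20 for rrn23S and 0.37 for ycf1. With libraries left out the log2 change ranged from -0.28 to 0.26 for matK, -0.35 to 0.36 for ndhB, -0.28 to 0.13 for petA, -0.33 to 0.0001 for petN, -0.30 to 0.38 for psaA, -0.39 to 0.23 for psaB, -0.79 to 0.063 for psbA, -0.85 to 0.0018 for rbcL and -0.13 to 0.24 for rps3. With spliced reads as base the change of clpP intron bin 2 was 0.078. Ratios of class shares turned without repeat genes for NDH (0.981) and polymerase genes (0.990), and for polymerase genes with protein-coding genes of 1 repeat copy (0.997), an alternative chosen after seeing the data. With libraries left out the share ratios ran from 0.790 to 1.23 for ATP synthase, 0.965 to 1.26 for NDH, 0.785 to 1.12 for Rubisco, 0.924 to 1.27 for cytochrome b6f, 0.902 to 1.37 for the large ribosomal subunit, 0.811 to 1.11 for photosystem II, 0.861 to 1.40 for polymerase genes, 0.969 to 1.02 for rRNA and 0.742 to 1.01 for tRNA.

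Over all genes tested, replicate numbers showed no pairing of the samples. Deviations of same-numbered libraries correlated at -0.114, -0.0503 and -0.0168, and no prmt5 mutant library correlated best with its own number. With so few libraries this cannot exclude pairing, and in psbA and rbcL replicate 3 was the highest library of both groups. With the replicate block the log2 change was -0.044 for matK and 0.073 for ndhB, the opposite of the unblocked sign, and 10 plastid rows were called, 5 of them among the 7; psbA, psbD, atpB, rbcL and psbB were then past the threshold and ycf2 and SIGA were not. It called 29 nuclear genes and 2 plastid introns and gave a plastid share ratio of 0.802. Leaving out mitochondrial rRNA and tRNA genes was not run, since those rows matched no name in the reference.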
